A study of Mus musculus with 12 samples.

Results

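Glucose enters endothelial cells through a carrier and is then broken down by the enzymes of glycolysis. The genes described here are Slc2a1, Hk2, Pfkp, Aldoa, Aldoc, Tpi1, Pgk1 and Pdk1, which encode the main carrier, 6 enzymes of glycolysis and a kinase that closes the way from pyruvate into mitochondria. They were chosen by name, with earlier results of these data known. Shares over all probe sets, genes or windows are therefore given as description, not as independent support. Every probe set annotated with one of these symbols was taken: 22 of 20523 probe sets, for 8 of 11015 genes. A probe set is a group of short array probes read as 1 value. Aldoa had 5 probe sets, Slc2a1, Pfkp, Tpi1, Pgk1 and Pdk1 had 3 each, and Hk2 and Aldoc had 1 each.

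The study compared aortic endothelial cells with and without the transcription factors Ets1 and Ets2 on Affymetrix mouse arrays. Cells came from aortas of mice aged 4 weeks and were cultured in a medium with serum, heparin and endothelial growth supplement. Wild-type cells were Ets1+/+; Ets2+/+ and had received a lentivirus carrying egfp. Ets1 null cells were Ets1-/-; Ets2fl/fl with the same egfp virus, so they also carried floxed Ets2 alleles. Ets2 null cells were Ets1+/+; Ets2fl/fl and had received a virus carrying egfp-Cre, the recombinase that removes floxed DNA. The double null (Ets1/2 null) cells were Ets1-/-; Ets2fl/fl with egfp-Cre. All 4 groups therefore carried a lentivirus with egfp, and Cre and the loss of Ets2 always went together. Each group was labelled with 3 biological replicates. The third Ets1/2 null column equalled the mean of the other columns of that group in 20521 of 20523 probe sets (within 1e-06) and was left out, so that 11 arrays were used. The titles do not say whether replicates came from separate animals. The p-values therefore measure the spread between these arrays, which may be technical, and the number of arrays limits the precision. In wild type that spread includes a sex difference, since its arrays were not all of the same sex by the Y-linked Eif2s3y.

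In glycolysis a hexokinase traps glucose as its phosphate, phosphofructokinase commits the sugar to breakdown, aldolase splits it, and triose phosphate isomerase and phosphoglycerate kinase lead on towards pyruvate. Pyruvate dehydrogenase kinase switches off the enzyme that feeds pyruvate into mitochondrial oxidation. Endothelial cells are known to draw much of their energy from glycolysis, and most of these genes are textbook targets of the hypoxia-inducible factors (HIF).

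RefSeq (GRCm38.p6) gave 12 start sites for the 8 genes, and windows from 250 bases before to 50 bases after each start were searched on both strands. The motifs were ACGTG and GCGTG, forms of the HIF core, and CGGAAGT, a form of the ETS site. ACGTG is also part of the E box CACGTG. At least 1 of ACGTG and GCGTG was present in 9 of 12 windows, against 43.77% of all 32851 windows of the table. ACGTG alone was in 6 (19.62% of all) and GCGTG in 5 (32.39% of all). CGGAAGT was in 0 of 12 windows and in 6.42% of all. Among the 3 Aldoa windows 2 overlap, and their ACGTG is the same site, counted once in each. A match describes letters in a window, not a bound site. Single windows are shown for Slc2a1, Hk2, Pfkp and Aldoc, whose brightest probe set was called higher than wild type in the arrays labelled double null, as deposited. The window of Pdk1 is shown because its brightest probe set was called lower in Ets2 null, as was that of Hk2. Capitals mark ACGTG or GCGTG on either strand.
Slc2a1: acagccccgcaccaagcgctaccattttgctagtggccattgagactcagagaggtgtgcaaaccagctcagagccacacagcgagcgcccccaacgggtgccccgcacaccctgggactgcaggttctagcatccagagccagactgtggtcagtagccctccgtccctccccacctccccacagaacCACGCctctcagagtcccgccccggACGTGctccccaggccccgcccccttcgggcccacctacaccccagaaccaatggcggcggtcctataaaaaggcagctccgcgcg
Hk2: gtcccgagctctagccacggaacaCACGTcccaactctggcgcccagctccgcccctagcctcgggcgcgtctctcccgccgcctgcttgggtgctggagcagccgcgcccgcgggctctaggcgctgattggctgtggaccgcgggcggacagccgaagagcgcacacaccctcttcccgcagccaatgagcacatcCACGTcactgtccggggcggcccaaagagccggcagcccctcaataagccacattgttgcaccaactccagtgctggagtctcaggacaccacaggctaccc
Pfkp: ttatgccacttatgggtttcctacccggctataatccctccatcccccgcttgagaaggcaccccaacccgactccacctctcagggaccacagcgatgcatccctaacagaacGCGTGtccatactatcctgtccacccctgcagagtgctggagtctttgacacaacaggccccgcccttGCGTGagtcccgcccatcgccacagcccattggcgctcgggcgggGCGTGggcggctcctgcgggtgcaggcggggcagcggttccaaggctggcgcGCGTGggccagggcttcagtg
Aldoc: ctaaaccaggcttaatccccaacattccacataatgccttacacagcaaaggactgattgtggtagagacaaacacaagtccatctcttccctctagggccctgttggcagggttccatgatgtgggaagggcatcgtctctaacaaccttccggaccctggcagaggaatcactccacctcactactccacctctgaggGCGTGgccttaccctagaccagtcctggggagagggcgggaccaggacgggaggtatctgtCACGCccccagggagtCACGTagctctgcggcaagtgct
Pdk1: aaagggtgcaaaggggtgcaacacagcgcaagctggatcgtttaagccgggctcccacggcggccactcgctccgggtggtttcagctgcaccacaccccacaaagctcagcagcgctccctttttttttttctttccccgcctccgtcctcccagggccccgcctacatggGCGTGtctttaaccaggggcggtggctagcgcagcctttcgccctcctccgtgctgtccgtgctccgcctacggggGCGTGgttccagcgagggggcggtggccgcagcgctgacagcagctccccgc
The Slc2a1 window (chr4:119108495-119108794, plus strand) held ACGTG at -36 (the leftmost base of the match as printed, with the start site as 1) and GCGTG on the opposite strand at -61. The Hk2 window (chr6:82774405-82774704, minus strand) held ACGTG on the opposite strand at -226 and -52. The Pfkp window (chr13:6648722-6649021, minus strand) held GCGTG 4 times, at -136, -68, -23 and 30. The Aldoc window (chr11:78322823-78323122, plus strand) held GCGTG at -50, and on the opposite strand GCGTG at 12 and ACGTG at 28. The Pdk1 window (chr2:71872974-71873273, plus strand) held GCGTG at -78 and -2. Among the windows not shown, that of Pgk1 on chromosome X held ACGTG at -150 and, on the opposite strand, at -131. None of the motifs was in the window of Tpi1, the other Pdk1 window (chr2:71874654-71874953) or the Aldoa window at chr7:126800398-126800697.

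Values are log2 signals, and they are compared within a probe set only. The median of all probe sets lay between 9.05 and 9.15 in 9 arrays and was 8.30 and 8.29 on those labelled double null. At the bright end the gap was smaller: the 99th percentile was 13.90 to 13.96 in those 9, and 13.55 and 13.59 with the double null label. Each comparison is therefore given as deposited and after centring every array on its median. Over all genes the median difference of the double null from wild type was -0.61 as deposited and 0.18 centred. Centring moves every probe set by the same amount, and the brightest members (Aldoa, Tpi1 and Pgk1) lie at the end where the arrays differed less.

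The labels were checked on Ets1 and Ets2. The brightest Ets1 probe set, 1452163_at, read 10.26, 9.84 and 10.06 on the wild-type arrays, 8.31, 8.76 and 9.17 on the Ets1 null arrays, 9.50, 9.55 and 9.88 on the Ets2 null arrays, and 10.02 and 10.29 on those labelled double null. It was lower in all Ets1 null arrays than in wild type (-1.31 ± 0.23 (SE), adjusted p = 0.197 in limma). The arrays labelled double null overlapped wild type (0.10 ± 0.25, adjusted p = 0.761, limma), which goes against their label. Centred, they were 0.90 above wild type (adjusted p = 0.0235, limma). Of the 3 other Ets1 probe sets, 1422027_a_at was lower than wild type there (-2.0 ± 0.27, adjusted p = 0.000288, limma, and -1.20 centred). Probe sets 1422028_a_at and 1426725_s_at differed by -0.61 and -0.02 (adjusted p = 0.125 and 0.961, limma). Centred, these 2 differed by 0.18 and 0.78 (adjusted p = 0.668 and 0.039, limma). Against Ets1 null, 1452163_at and 1426725_s_at were 1.41 ± 0.25 and 1.20 ± 0.25 higher with the double null label (adjusted p = 0.00160 and 0.00369, limma). There 1422027_a_at was lower (-1.5 ± 0.27, adjusted p = 0.00150, limma), and the brightest Ets2 probe set differed by -0.07 ± 0.42 (adjusted p = 0.903, limma). Centred, these differences were 2.26, 2.04, -0.65 and 0.77, and that of 1422027_a_at was no longer called (adjusted p = 0.081, limma). Probe set 1422028_a_at was called higher only after centring (0.93, adjusted p = 0.0391, limma). The arrays labelled double null are therefore called by their label throughout, and comparisons with them are comparisons of labels. The brightest Ets2 probe set differed from wild type by -0.44 ± 0.38 in Ets2 null (adjusted p = 0.540, limma) and by 0.18 ± 0.42 in the double null (adjusted p = 0.746, limma). Where these probes lie relative to the deleted parts is not given in the sources used here, so they are a limited check. Only 6 of 20 endothelial markers were on the table (Kdr, Eng, Cd34, Egfl7, Fabp4 and Plvap), and Pecam1, Cdh5, Tek and Vwf were not among them. The log2 of their summed signal was 11.83 to 13.44 for wild type, 10.55 to 11.10 for Ets1 null, 13.29 to 14.12 for Ets2 null, and 9.72 and 11.39 on arrays labelled double null. Of these markers Kdr, Eng, Egfl7 and Plvap were called lower than wild type in the double null as deposited (-1.02, -2.11, -1.82 and -1.95, with adjusted p = 0.00120, 0.0117, 0.00544 and 0.0411, limma). Of all probe sets 46.0% were called lower there. None of the 6 markers was called after centring, where 14.4% of all probe sets were called lower. The sum of 10 of 12 fibroblast markers was 14.77 to 15.50, 15.05 to 15.21, 14.30 to 15.38, and 15.10 and 15.64 in the same order. For 9 of 12 smooth muscle and pericyte markers it was 12.85 to 13.99, 12.96 to 14.21, 12.71 to 14.56, and 12.29 and 14.57. For 4 of 9 epithelial and mesothelial markers it was 9.86 to 12.70, 13.86 to 14.39, 11.38 to 12.81, and 11.32 and 13.64. For 6 of 12 leukocyte markers it was 9.94 to 10.87, 10.65 to 11.36, 9.58 to 9.91, and 9.40 and 9.88. The part of these cell type markers in the results was not tested, and in bulk RNA fewer cells of a type and less RNA per cell cannot be told apart. By the Y-linked Eif2s3y, the 3 Ets2 null arrays and array 1 of wild type were male and the other 7 arrays female.

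The lowest group mean was that of Ets2 null in 20 of 22 probe sets as deposited (11.8% of all probe sets), though few differences from wild type there passed the test, and Ets1 null values overlapped those of wild type in all but 1 probe set. With the double null label Hk2, Aldoc, 2 probe sets of Slc2a1, 2 of Pfkp and 1 each of Aldoa and Pgk1 were higher than in wild type, and 1 of Pfkp was much lower. Calls rest on an adjusted p (Benjamini-Hochberg over all 20523 probe sets, limma) under 0.05. In Ets1 null against wild type, 0 of 22 member probe sets were called, as deposited or centred, and 0 had an unadjusted p under 0.05. Over all probe sets 0.00487% were called there, and no alternative fit called a member. The 22 differences ran from -0.63 to 0.57 with a median of -0.03. 1 of 22, Pfkp 1437759_at, had all Ets1 null arrays above wild type, as had 10.3% of all probe sets.

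In Ets2 null against wild type, 3 of 22 probe sets were called lower and 0 higher, against 0.287% and 0.292% of all probe sets. They were Hk2 and 2 probe sets of Pdk1. After centring 4 were called lower (0.297% of all). Of 22 differences, 21 were below 0 (51.7% of all probe sets) and 18 had an unadjusted p under 0.05 (20.7% of all), and their median was -0.77, beside -0.02 over all genes. All Ets2 null arrays lay below all wild-type arrays in 17 of 22 probe sets, as they did in 14.8% of all. All Ets2 null arrays were male, and they lay below the male wild-type array in 20 of 22 probe sets, as in 30.1% of all. With a term for male arrays, which rests on 1 male and 2 female wild-type arrays, 0 of 22 were called (0.0195% of all), and sex was otherwise aligned with the group. With limma's array weights, which were lowest for wild-type array 3 (0.297) and Ets2 null array 3 (0.299), 18 of 22 were called lower, as were 6.25% of all probe sets. Leaving out single arrays gave 0 to 3 calls.

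In the arrays labelled double null against wild type, 8 of 22 probe sets were called higher and 1 lower, against 2.87% of all probe sets called higher and 46.0% called lower. These 8 belonged to Slc2a1, Hk2, Pfkp, Aldoa, Aldoc and Pgk1, and the 1 lower was Pfkp 1430634_a_at. After centring 19 were called higher and 1 lower, against 21.6% and 14.4% of all. The median of the 22 differences was 0.34 as deposited and 1.14 centred. Without single arrays 6 to 10 probe sets were called as deposited.

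Against Ets1 null, which by its label differs from the double null in Cre and Ets2, 8 probe sets were called higher and 1 lower (1.76% and 46.0% of all), and 21 and 1 after centring (21.8% and 13.7% of all). Against Ets2 null, which by its label has Cre and keeps Ets1, 19 were called higher and 1 lower (3.12% and 45.7% of all), and 21 and 1 after centring (20.2% and 14.9% of all). In all 22 the arrays of these groups did not overlap, 21 higher and 1 lower, as in 6.61% and 58.4% of all probe sets. The double null arrays were female and the Ets2 null arrays male, and a fit with male arrays as a term called 7 of 22: Slc2a1 1426599_a_at, Hk2, Pfkp 1416069_at and 1437759_at, Aldoc and Pgk1 1439435_x_at higher (0.541% of all probe sets), and Pfkp 1430634_a_at lower (21.6% of all). The comparisons with the double null share its 2 arrays, so their values are set side by side and not counted as separate support.

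**Figure D1:**
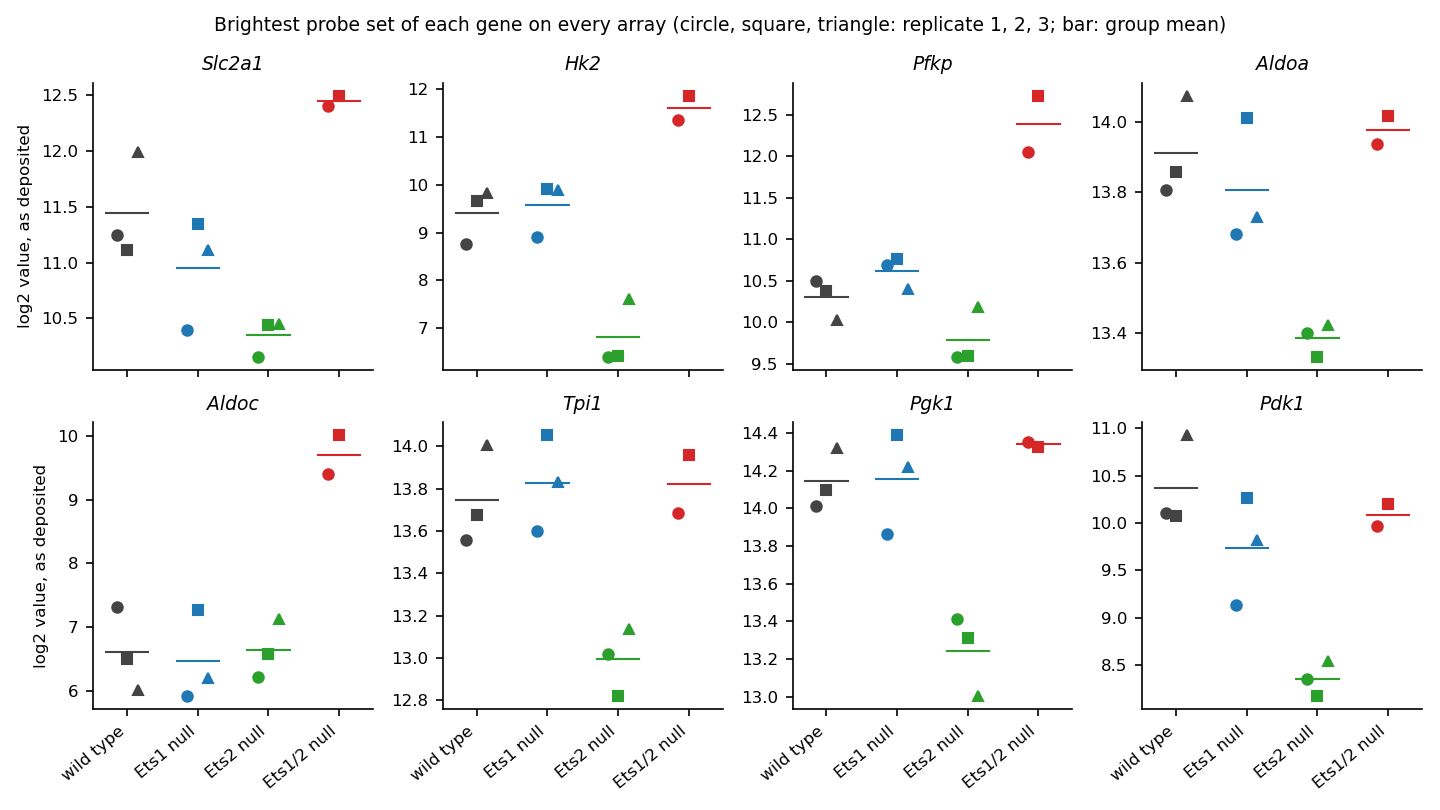
Deposited log2 values (vertical axes, each with its own range) of the brightest probe set of each of the 8 genes, with 1 point per array and a bar at the group mean. The 3 Ets2 null arrays are the lowest for Hk2, Aldoa, Tpi1, Pgk1 and Pdk1, and Slc2a1, Hk2, Pfkp and Aldoc are highest in both arrays labelled double null; Aldoa, Tpi1, Pgk1 and Pdk1 overlap wild type or lie just above it there.

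Slc2a1 (Entrez 20525) encodes GLUT1, the carrier that lets glucose into most cells. Its brightest probe set, 1434773_a_at, read 11.24, 11.11 and 11.99 on the wild-type arrays, 10.40, 11.35 and 11.11 on the Ets1 null arrays, 10.16, 10.44 and 10.45 on the Ets2 null arrays, and 12.40 and 12.49 on those labelled double null. Both arrays labelled double null were above every other array, all Ets2 null arrays were below every wild-type array, and Ets1 null overlapped wild type. The double null differed from wild type by 1.0 ± 0.32 (SE, adjusted p = 0.0279, limma), or 1.79 ± 0.31 after centring (adjusted p = 0.00276, limma). Probe set 1426599_a_at gave 1.23 ± 0.33 (adjusted p = 0.0131, limma). The third, 1426600_at, read 10.87 and 11.77 on the double null arrays against 10.72, 10.71 and 11.47 in wild type; it overlapped as deposited (0.35 ± 0.36, adjusted p = 0.452, limma) and was called only after centring (1.15 ± 0.36, adjusted p = 0.0345, limma). In Ets2 null the 3 probe sets were 1.10, 1.21 and 1.22 below wild type, with no overlap and adjusted p of 0.0947, 0.0878 and 0.101 in limma, so none was called. The call of 1434773_a_at was lost without wild-type array 1 or 2 or either array labelled double null (adjusted p up to 0.111, limma), and that of 1426599_a_at without array 2 labelled double null (adjusted p = 0.0844, limma).

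Hk2 (Entrez 15277) encodes hexokinase 2, the inducible form that traps glucose in the cell. Its only probe set, 1422612_at, read 8.76, 9.66 and 9.82 on the wild-type arrays, 8.92, 9.92 and 9.88 on the Ets1 null arrays, 6.40, 6.42 and 7.60 on the Ets2 null arrays, and 11.35 and 11.86 on those labelled double null. The Ets2 null arrays were below all others, the arrays labelled double null above all others, and wild type and Ets1 null overlapped. Hk2 fell by 2.61 ± 0.43 in Ets2 null (adjusted p = 0.0421, limma) and was 2.19 ± 0.48 higher than wild type in the double null (adjusted p = 0.00457, limma), or 2.99 ± 0.46 centred (adjusted p = 0.00163, limma). Between Ets2 null and the double null the step was 4.80 ± 0.48 (adjusted p = 6.03e-05, limma). The Ets2 null call was lost without any 1 of 8 arrays (wild type 2 or 3, any Ets1 null or any Ets2 null array), with adjusted p up to 0.116 and differences of -3.0 to -2.40. With a term for male arrays it was -1.95 (adjusted p = 0.341, limma). The call against wild type in the double null held without each array in turn (adjusted p up to 0.0389, limma).

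Pfkp (Entrez 56421) encodes the platelet form of phosphofructokinase, and its probe sets moved in opposite directions. Probe set 1416069_at read 10.50, 10.38 and 10.03 on the wild-type arrays, 10.69, 10.77 and 10.40 on the Ets1 null arrays, 9.59, 9.59 and 10.19 on the Ets2 null arrays, and 12.05 and 12.73 on those labelled double null. Probe set 1430634_a_at read 10.07, 9.90 and 8.94, then 10.15, 10.50 and 9.97, then 9.14, 8.99 and 9.31, and 4.56 and 4.81 in the same order of groups. Both arrays labelled double null were the highest of all in the first and the lowest of all in the second. Against wild type 1416069_at rose by 2.09 ± 0.27 (adjusted p = 0.000242, limma), 1437759_at rose by 0.93 ± 0.19 (adjusted p = 0.00352, limma) and 1430634_a_at fell by 4.96 ± 0.31 (adjusted p = 6.84e-06, limma). Centred, these were 2.88, 1.72 and -4.16, so the opposite directions did not depend on the centring. The wild-type mean of 1437759_at lay at the 3.53 percentile of all probe sets, so its rise starts near the low end. The double null mean of 1430634_a_at lay at the 0.41 percentile, so the size of its fall is uncertain. In Ets2 null both 1416069_at and 1430634_a_at overlapped wild type, at 0.52 ± 0.24 and 0.49 ± 0.28 below it (adjusted p = 0.260 and 0.353, limma). The mean of the 3 probe sets gives a value with the opposite sign to the brightest probe set, -0.65 against wild type, and hides both movements. The files do not give which transcripts the probe sets match.

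**Figure D2:**
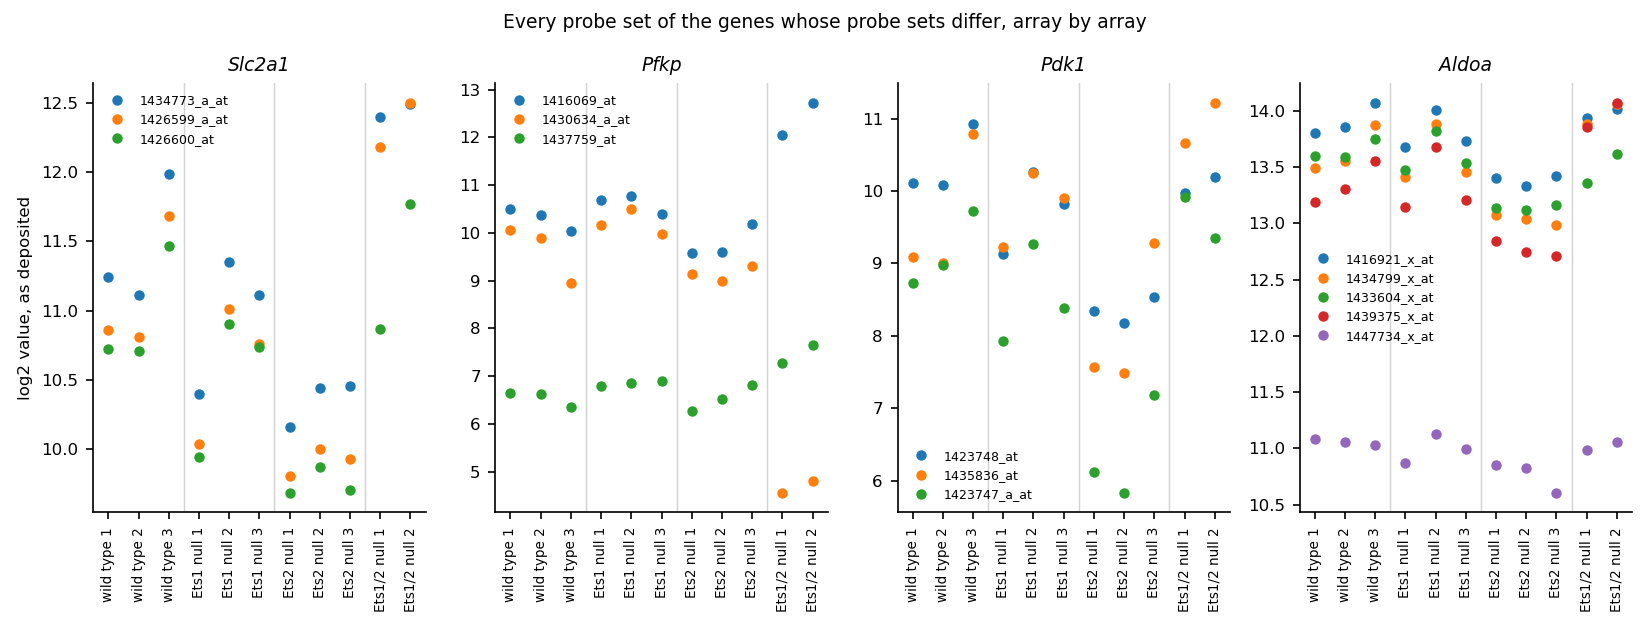
Deposited log2 values (vertical axis) of every probe set of Slc2a1, Pfkp, Pdk1 and Aldoa on the 11 arrays (horizontal axis), 1 colour per probe set. Pfkp 1430634_a_at drops to 4.56 and 4.81 on the double null arrays while Pfkp 1416069_at reaches 12.05 and 12.73, and Aldoa 1439375_x_at rises there relative to 1433604_x_at.

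Aldoa (Entrez 11674) encodes the aldolase of most tissues and gave some of the brightest signals of the table. All 5 probe sets carry the suffix x, which marks probes that may also bind other transcripts, so their values are uncertain for Aldoa alone. The brightest, 1416921_x_at, read 13.80, 13.86 and 14.07 on the wild-type arrays, 13.68, 14.01 and 13.73 on the Ets1 null arrays, 13.40, 13.33 and 13.42 on the Ets2 null arrays, and 13.94 and 14.02 on those labelled double null. The Ets2 null arrays were below all others and the remaining groups overlapped. In Ets2 null the 5 probe sets lay 0.30 to 0.61 below wild type without overlap, and none was called (adjusted p 0.0904 to 0.206, limma). In the double null only 1439375_x_at was called higher than wild type as deposited (0.61 ± 0.19, adjusted p = 0.0241, limma). That call was lost without wild-type array 1 or 2 or without array 2 labelled double null (adjusted p up to 0.131, limma). The other 4 differed by -0.16 to 0.33 as deposited, with 1433604_x_at (-0.16) and 1447734_x_at (-0.04) below 0, and by 0.63 to 1.13 after centring, where all 5 were called higher.

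Aldoc (Entrez 11676) encodes a second aldolase, best known from brain. Its probe set, 1451461_a_at, read 7.32, 6.51 and 6.03 on the wild-type arrays, 5.93, 7.27 and 6.21 on the Ets1 null arrays, 6.22, 6.59 and 7.13 on the Ets2 null arrays, and 9.40 and 10.00 on those labelled double null. The 3 other groups overlapped, and both arrays labelled double null stood above all of them. The means of wild type, Ets1 null and Ets2 null lay at the 4.32, 3.08 and 4.29 percentile of all probe sets, and the double null mean at 75.25. At such low values a lack of difference among those 3 groups says little, and the size of the rise is uncertain. Aldoc rose by 3.08 ± 0.49 against wild type (adjusted p = 0.000774, limma) and by 3.88 ± 0.49 after centring. In Ets2 null it differed from wild type by 0.03 ± 0.43 (adjusted p = 0.981, limma).

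Tpi1 (Entrez 21991) encodes triose phosphate isomerase, which interconverts the products of aldolase. Probe set 1415918_a_at read 13.56, 13.67 and 14.01 on the wild-type arrays, 13.60, 14.05 and 13.83 on the Ets1 null arrays, 13.02, 12.82 and 13.14 on the Ets2 null arrays, and 13.68 and 13.96 on those labelled double null. The Ets2 null arrays were below all others, and the other groups overlapped. In Ets2 null the 3 probe sets were 0.69 to 0.91 below wild type (adjusted p 0.0816 to 0.0916, limma) and were not called. The double null differed from wild type by 0.08 to 0.16 as deposited, with no call, and by 0.87 to 0.95 centred, with all 3 called. Against Ets1 null, 1415918_a_at differed by -0.01 as deposited and by 0.84 centred, so its sign there depended on the centring. Against Ets2 null the same probe set was 0.83 ± 0.20 higher (adjusted p = 0.00725, limma), a call lost without array 2 labelled double null (adjusted p = 0.0563, limma).

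Pgk1 (Entrez 18655), on chromosome X, encodes phosphoglycerate kinase, the first step of glycolysis that yields ATP. Probe set 1417864_at read 14.01, 14.10 and 14.32 on the wild-type arrays, 13.86, 14.39 and 14.22 on the Ets1 null arrays, 13.41, 13.31 and 13.00 on the Ets2 null arrays, and 14.35 and 14.33 on those labelled double null. Every Ets2 null array was below every other array. The other Pgk1 probe sets, 1438640_x_at and 1439435_x_at, carry the suffix x described for Aldoa, so they may also bind other transcripts. Against wild type, 1417864_at was called only in the double null after centring (adjusted p = 0.00414, limma). The 3 probe sets were 0.90, 0.79 and 0.79 below wild type in Ets2 null with adjusted p of 0.0593, 0.0518 and 0.0600 in limma, and only 1438640_x_at was called after centring (adjusted p = 0.0498, limma). In the double null 1439435_x_at rose by 0.71 ± 0.17 (adjusted p = 0.00751, limma; 0.0502 without array 1 labelled double null), while 1417864_at and 1438640_x_at differed by 0.20 and -0.02 as deposited and by 0.99 and 0.78 centred, where both were called higher.

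Pdk1 (Entrez 228026) encodes pyruvate dehydrogenase kinase 1, which holds pyruvate back from mitochondria. Probe set 1423748_at read 10.11, 10.08 and 10.93 on the wild-type arrays, 9.13, 10.26 and 9.82 on the Ets1 null arrays, 8.35, 8.17 and 8.54 on the Ets2 null arrays, and 9.97 and 10.20 on those labelled double null. Probe set 1423747_a_at read 8.72, 8.97 and 9.72, then 7.93, 9.26 and 8.38, then 6.11, 5.83 and 7.18, and 9.92 and 9.35 in the same order. In both, every Ets2 null array was below every other array, and the arrays labelled double null overlapped wild type. In Ets2 null 1423748_at fell by 2.02 ± 0.31 and 1423747_a_at fell by 2.77 ± 0.45 (adjusted p = 0.0415 for both, limma). The third probe set, 1435836_at, was 1.52 ± 0.60 lower and overlapped wild type (adjusted p = 0.200, limma), since Ets2 null array 3 read 9.28 against 7.57 and 7.48. The call of 1423748_at was lost without 6 of the 11 arrays in turn (wild type 1 or 2, Ets1 null 3, any Ets2 null), and that of 1423747_a_at without 8 (any wild-type or Ets2 null array, Ets1 null 1 or 3), with adjusted p up to 0.103 and 0.113. Fitted with male arrays as a term, these differences were -1.76 and -2.35 (adjusted p = 0.311 and 0.324, limma). In the double null no Pdk1 probe set was called against wild type as deposited (-0.29, 1.32 and 0.49), and 1435836_at was called after centring (2.11 ± 0.66, adjusted p = 0.0336, limma). 1423748_at changed sign there, from -0.29 to 0.51 centred, without a call.

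**Figure D3:**
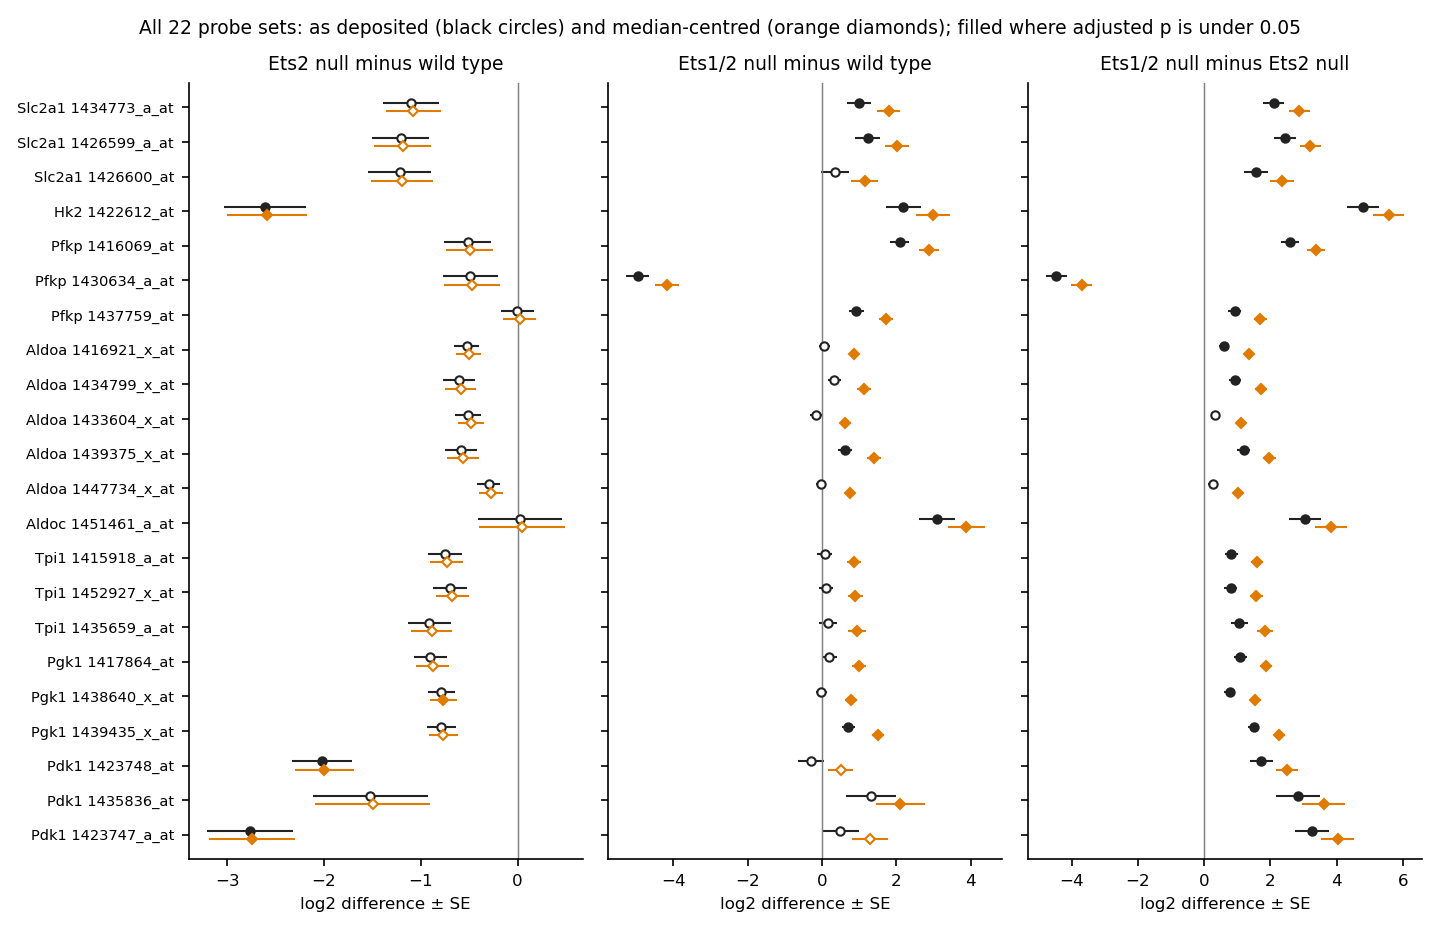
Log2 differences (horizontal axes, with limma's standard error) of all 22 probe sets (vertical axis) for 3 comparisons, as deposited (black circles) and centred (orange diamonds), filled where the adjusted p was under 0.05. In Ets2 null 21 of 22 lie below 0 as deposited; in the double null against wild type centring moves all probe sets to the right, and Aldoa 1433604_x_at and 1447734_x_at, Pgk1 1438640_x_at and Pdk1 1423748_at cross 0.

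The interaction is the double null minus Ets1 null difference less the Ets2 null minus wild type difference, with groups as labelled. 16 of 22 probe sets were called higher and 1 lower, against 1.44% and 34.0% of all, and 21 and 1 after centring (10.3% and 9.36% of all). Hk2 gave the largest positive value, 4.64 ± 0.64 (adjusted p = 0.000702, limma), followed by Pdk1 1423747_a_at with 3.87 ± 0.67 (adjusted p = 0.00229, limma) and Aldoc with 3.21 ± 0.65 (adjusted p = 0.00504, limma). Pfkp 1430634_a_at gave -5.04 ± 0.42 (adjusted p = 6.21e-05, limma). With a term for male arrays 10 of 22 were called, 9 higher and 1 lower (0.828% and 24.4% of all), with Hk2 at 3.98 (adjusted p = 0.00590, limma) and Aldoc at 3.91 (adjusted p = 0.00628, limma). Without single arrays 14 to 20 were called.

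Each gene was then set against another isoform of the same step as a log2 ratio within each array, which shows unequal change and not which isoform moved. There were 24 comparisons of 8 pairs with wild type by an exact two-sided permutation test. The smallest p the design allows is 0.1, so none could pass a threshold of 0.05, and the smallest adjusted value was 0.218. In the double null the Aldoc to Aldoa ratio was 3.02 above wild type (SD 0.37 in the double null and 0.79 in wild type), Pfkp to Pfkm 2.81 (SD 0.0086 and 0.53), Pfkp to Pfkl 2.01, Hk2 to Hk1 1.82, Slc2a1 to Slc2a6 1.67 and Pdk1 to Pdk2 0.73. The Pfkp ratios rest on 1416069_at, and 1430634_a_at moved the other way on the same arrays. The Aldoc mean in wild type lay at only the 4.32 percentile of all probe sets. These 6 ratios did not overlap wild type, each with an exact p of 0.1, and Slc2a1 to Slc2a3 and Pdk1 to Pdk3 overlapped. In Ets2 null the ratio was lower without overlap for Pdk1 to Pdk2 (-3.05), Hk2 to Hk1 (-2.20), Slc2a1 to Slc2a3 (-1.85) and Pdk1 to Pdk3 (-0.99). In Ets1 null only Slc2a1 to Slc2a3 did not overlap (-1.0). How often ratios of other gene pairs fail to overlap was not computed, so these counts are description only. The constitutive hexokinase Hk1 read 11.71 to 12.23 in wild type and 11.33 to 11.59 in Ets2 null, a narrower step than that of Hk2.

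**Figure D4:**
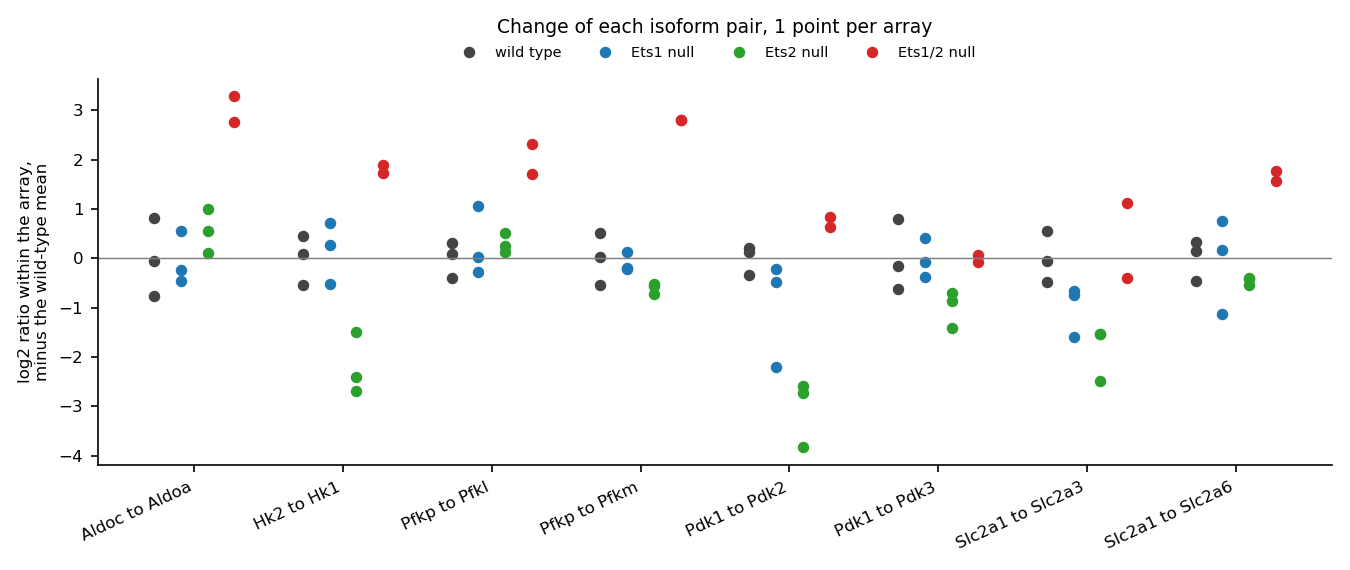
Log2 ratio of each isoform pair within an array, minus the wild-type mean (vertical axis), with 1 point per array coloured by group. The Aldoc to Aldoa and Pfkp to Pfkm ratios are highest in both arrays labelled double null, and the Pdk1 to Pdk2 and Hk2 to Hk1 ratios are lowest in the 3 Ets2 null arrays.

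The other genes of glucose use were counted by lists, with 1 probe set per gene and a call only where it held as deposited and centred. In Ets2 null 0.236% of all genes were called lower in both. None of 6 further glucose carriers, 6 further genes of upper glycolysis or 8 of lower glycolysis was called, with median differences of 0.18, -0.35 and -0.50 beside -0.02 over all genes. Ldha, which makes lactate from pyruvate, was 0.83 lower (adjusted p = 0.0625, limma) and Pgam1, a mutase of lower glycolysis, 0.70 lower (adjusted p = 0.0785, limma). Of 8 glycogen genes, 1 was called lower: Pgm2, a phosphoglucomutase, by 1.14 ± 0.17 (adjusted p = 0.0405, limma). Of 24 genes of the HIF pathway and its other targets, 3 were called lower: Egln3, an oxygen-sensing hydroxylase that marks HIF for decay (-2.70 ± 0.41), P4ha2, a collagen prolyl hydroxylase (-1.75 ± 0.23), and Higd1a, a mitochondrial protein (-1.67 ± 0.28), with adjusted p of 0.0379, 0.0274 and 0.0452 in limma. The HIF list had a median of -0.56. No member of the other lists of glucose genes was called.

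In the double null against wild type 2.41% of all genes were called higher and 11% lower in both. Of the HIF list 8 of 24 were called higher and 1 lower, with a median of 0.80 as deposited and 1.60 centred, beside -0.61 and 0.18 over all genes. P4ha2 was 2.61 ± 0.26 higher and Egln3 2.51 ± 0.45 higher (adjusted p = 5.97e-05 and 0.00170, limma), while Egln2 fell by 1.71 ± 0.19 (adjusted p = 0.000113, limma). P4ha2 read 9.82, 10.36 and 10.19 on wild-type arrays, 8.29, 8.05 and 8.77 on Ets2 null arrays, and 12.56 and 12.91 on those labelled double null, without overlap between these groups. Of the glycogen list 1 of 8 was called higher, the branching enzyme Gbe1 (2.16 ± 0.41, adjusted p = 0.00224, limma). Of 4 genes that make or remove fructose 2,6-bisphosphate, the activator of phosphofructokinase, 1 was called higher, Pfkfb2 (0.85 ± 0.31, adjusted p = 0.0467, limma). Of 8 genes of lower glycolysis 3 were called lower: Minpp1, Pklr, the liver and red-cell pyruvate kinase, and Bpgm, which makes 2,3-bisphosphoglycerate, (-2.02, -1.66 and -2.38; adjusted p = 2.05e-05, 6.46e-05 and 0.00457, limma). Hk3 fell by 1.40 ± 0.12 and Pgls, of the pentose phosphate pathway, by 2.25 ± 0.15 (adjusted p = 2.71e-05 and 9.25e-06, limma). No gene of glucose carriers, lactate and its export, pyruvate dehydrogenase or gluconeogenesis was called in both. Of 8 other regulators, Foxo1 was called higher (1.17 ± 0.40, adjusted p = 0.0370, limma) and Max lower (-1.80 ± 0.22, adjusted p = 0.000171, limma).

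**Figure D5:**
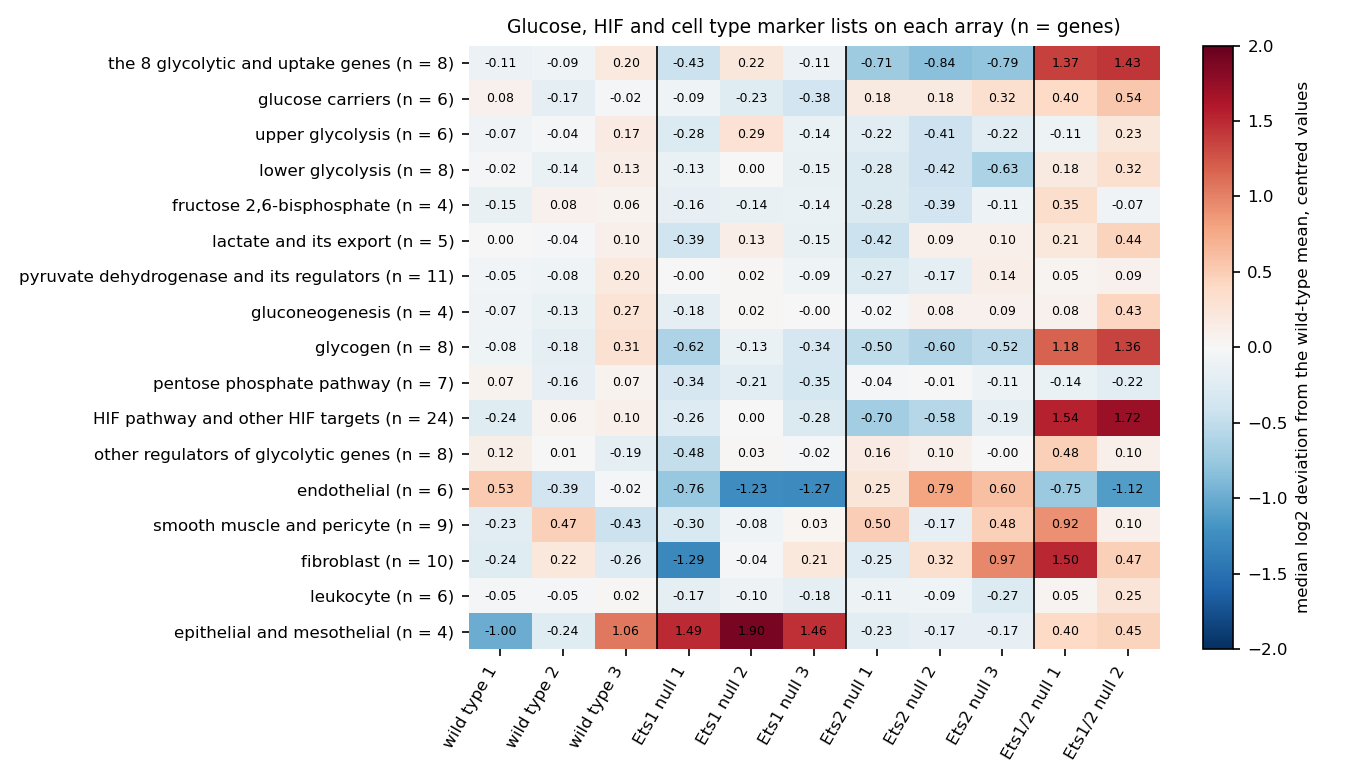
Median deviation of each gene list from the wild-type mean, in centred log2 units (colour and printed value), with lists in rows and the 11 arrays in columns. The 8 glycolytic and uptake genes lie at -0.71 to -0.84 in Ets2 null and at 1.37 and 1.43 with the double null label. The HIF list lies at -0.70 to -0.19 and at 1.54 and 1.72. In Ets2 null the HIF list overlaps wild type, since wild-type array 1 lies at -0.24. Centring adds to the positive values.

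In the interaction 1.59% of all genes were called higher and 6.85% lower in both. Of the HIF list 12 of 24 were called higher and 1 lower. P4ha2 gave 4.47 ± 0.34 and Egln3 5.4 ± 0.61 (adjusted p = 4.45e-05 and 0.000258, limma), Higd1a gave 3.37 ± 0.43 (adjusted p = 0.000473, limma), and Egln2, a second oxygen-sensing hydroxylase, was the 1 called lower (-1.86 ± 0.26, adjusted p = 0.000702, limma). Of 8 glycogen genes 4 were called higher: Gys1, glycogen synthase (1.52 ± 0.37), Gbe1 (3.41 ± 0.55), Pygl, glycogen phosphorylase (5.92 ± 1.85), and Pgm1 (2.16 ± 0.58), with adjusted p of 0.0127, 0.00161, 0.0339 and 0.0186 in limma. Pfkfb3, which makes the activator of phosphofructokinase, was called higher (1.69 ± 0.44, adjusted p = 0.0164, limma), as were Pdk3 (1.36 ± 0.40, adjusted p = 0.0269, limma) and Pgam1 (0.73 ± 0.24, adjusted p = 0.0428, limma). Minpp1 and Pgls were called lower (-1.86 ± 0.22 and -2.67 ± 0.21, adjusted p = 0.000335 and 4.45e-05, limma). Centred, Egln2, Minpp1 and Pgls gave -1.04, -1.03 and -1.85, and the named genes called higher gave 1.55 (Pgam1) to 6.74 (Pygl).

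By Pearson's r of centred values over the 11 arrays, which share the 4 groups, the gene most like Hk2 was Tpi1 (0.984) and the gene most like Tpi1 was Nampt (0.985). Slc2a1 was closest to Tnfrsf9 (0.982), Pfkp to Txndc17 (0.979), Aldoa to Cacul1 (0.982), Aldoc to Atp11b (0.983), Pgk1 to Dtwd1 (0.983) and Pdk1 to Pcbp2 (0.965). Higd1a and Slc2a1 were among the 3 closest to Aldoa (0.981 and 0.980). These are descriptions over few arrays.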

How the data were processed

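Deposited values are log2 signals of Affymetrix probe sets made by the authors with RMA, per the submitters' processing notes; the version used and whether it ran on every array jointly were not given in the sources used here. Symbols came from the platform annotation (18824 of 20523 probe sets with 1 symbol, 549 with several, 1150 with none), and 18788 matched RefSeq by Entrez identifier. 0 columns belonged to no listed sample. All probe sets on the 11 arrays were fitted with 1 coefficient for each group in limma (version 3.58.1, R 4.3.3; lmFit and eBayes, two-sided, Benjamini-Hochberg, threshold 0.05), checked on simulated data. Errors are limma's SE. The interaction subtracts the Ets2 null minus wild type difference from the double null minus Ets1 null difference. Each result was also computed with centring, quantile normalization, 1 value per gene (brightest or mean), leaving out the dimmest 25% of probe sets or each array, only the arrays compared, array weights, a replicate block and a term for male arrays (Eif2s3y above 6). All member probe sets are named; from each other list at most 4 genes per comparison called in both scalings, or at most the 2 with the smallest p; and the 3 genes of highest r per member. Other genes are named as markers, isoforms or label checks. The members, lists and motifs were chosen with earlier results of these data known. Tables and plots used Python 3.11.15 with pandas 2.3.3 and matplotlib 3.10.9.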

Additional observations from a re-analysis of the deposited data

Results flagged for a closer look

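The step from Ets1 null to the double null, less the step from wild type to Ets2 null (groups as labelled), passed the test of that difference (limma, adjusted p under 0.05) in 17 of 22 probe sets, in log2 units as deposited. Of these 16 were higher and 1 lower, against 1.44% and 34.0% of all probe sets. For Slc2a1 the difference between the steps was 2.59 (1434773_a_at), 2.95 (1426599_a_at) and 2.01 (1426600_at). For Hk2 it was 4.64. For Pfkp it was 2.29 in 1416069_at and -5.04 in 1430634_a_at, with opposite signs. For Aldoa it was 0.70 (1416921_x_at), 0.996 (1434799_x_at) and 1.20 (1439375_x_at), and for Aldoc 3.21. For Tpi1 1435659_a_at it was 1.02. For Pgk1 it was 1.08 (1417864_at), 0.81 (1438640_x_at) and 1.52 (1439435_x_at). For Pdk1 it was 2.36 (1423748_at), 2.67 (1435836_at) and 3.87 (1423747_a_at). All of these rest on the 2 arrays labelled double null, whose brightest Ets1 probe set lay at the wild-type level as deposited and 0.90 above it centred.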

How the results depend on the processing

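Counts of called member probe sets changed most in Ets2 null against wild type (3 as deposited). They were 0 with the replicate block, 0 with only the arrays compared, 0 with a term for male arrays and 18 with array weights. Over all 20523 probe sets the same fits called 0, 0, 4 and 2687, against 119 as deposited. By gene 1 was called with the brightest probe set or with the mean of probe sets, against 2. Over all 11015 genes 33 and 52 were called. For the double null against wild type (9) centring gave 20, and against Ets1 null (9) centring gave 22 and quantile normalization 14. Of all 20523 probe sets, 10021 were called against wild type as deposited and 7389 centred. Against Ets1 null 9812 were called as deposited, 7275 centred and 6262 after quantile normalization. The term for male arrays gave 7 against Ets2 null (20) and 10 in the interaction (17). It called 22.1% and 25.2% of all probe sets there. Leaving out single arrays gave 0 to 0 calls in Ets1 null, 0 to 3 in Ets2 null, 6 to 10 for the double null against wild type and against Ets1 null, 17 to 20 against Ets2 null, 14 to 20 in the interaction, and 11 to 14 ratios without overlap (11). With 1 array left in the double null its spread is taken from the other groups.

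Signs reversed for Pfkp 1416069_at when probe sets were averaged: -0.65 against wild type, -1.04 against Ets1 null, -0.31 against Ets2 null and -0.71 in the interaction; the average holds the opposite probe set. Centring reversed Aldoa 1433604_x_at (0.63 against wild type, 0.72 against Ets1 null), Aldoa 1447734_x_at (0.76; 0.53 with quantile normalization), Pgk1 1438640_x_at (0.78) and Tpi1 1415918_a_at against Ets1 null (0.84).

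Replicate numbers showed no clear pairing of the arrays. Deviations from the group mean correlated at -0.31 to 0.10 for same-numbered arrays (median -0.06), and at -0.19 to 0.31 for others. The double null arrays deviate from their mean by equal and opposite amounts, so -0.31 and 0.31 are mirror values. With so few arrays per group this cannot decide whether arrays were paired. The replicate block gave 10, 11, 20 and 18 calls for the 3 double null comparisons and the interaction. Over all 20523 probe sets it called 9228, 8947, 9096 and 6353.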
